A study of Mus musculus with 8 samples.

Results

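Gene-end H2A.Z intervals that carried both active histone marks were examined in Beta-TC6 cells. An interval of the H2A.Z peak list was a member when its centre lay within 1 kb (1000 bp) of either end of an mm10 RefSeq protein-coding gene and it shared at least 1 bp with an H3K4me2 interval and at least 1 bp with an H3K27ac interval. Members were thus chosen by measured values, namely the called H2A.Z, H3K4me2 and H3K27ac intervals. The rule took 2986 of the 26455 H2A.Z intervals (11.3%), which is 48.0% of the 6215 H2A.Z intervals at gene ends. Of the other 3229 at gene ends, 2248 shared bases with H3K4me2 only, 419 with H3K27ac only and 562 with neither mark. The 2 sets that served for comparison were these 3229 intervals and 3003 distal H2A.Z intervals that carried both marks farther than 1 kb from any gene end.

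The data were chromatin immunoprecipitation followed by sequencing (ChIP-seq) from Beta-TC6, a mouse insulinoma line cultured as a model of the pancreatic beta cell, harvested untreated at confluence. Chromatin was fixed with the protein crosslinker DSG and then with formaldehyde, and was sonicated. There was 1 library for each of the 6 targets, namely H2A.Z, H3K4me2, H3K27ac, CLOCK, BMAL1 and PDX1, and 2 input libraries, so no value has a replicate error. All libraries came from the same line in the same state, so the comparisons are between sets of intervals within these libraries, and intervals are not replicates.

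H2A.Z is a variant of histone H2A that the SRCAP and p400 remodelling complexes place into nucleosomes, often those that flank the nucleosome-depleted stretch at active promoters. H3K4me2 is found at promoters and enhancers, and H3K27ac, written by the acetyltransferases p300 and CBP, marks those that are active. CLOCK and BMAL1 form the heterodimer that activates circadian genes through E-box sequences, and PDX1 is a homeodomain factor that maintains beta-cell identity.

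Promoters of 6 genes are shown as examples with and without an E-box, chosen from the 9 listed promoters at the named members on CLOCK. Of these 9, 4 held an E-box and all 4 are shown, and 5 did not (Ccdc85b, Arl4a, Aven, Pms2 and Aimp2), of which the 2 with the highest CLOCK scores are shown. Each line gives the 250 bases before the gene start, 5′ to 3′ on the gene's strand, from RefSeq on GRCm38.p6 (mm10 coordinates), with the E-box CACGTG in capitals. The motif is palindromic, so a match counts for both strands.
Ciart (chr3:95882229-95882478, minus strand): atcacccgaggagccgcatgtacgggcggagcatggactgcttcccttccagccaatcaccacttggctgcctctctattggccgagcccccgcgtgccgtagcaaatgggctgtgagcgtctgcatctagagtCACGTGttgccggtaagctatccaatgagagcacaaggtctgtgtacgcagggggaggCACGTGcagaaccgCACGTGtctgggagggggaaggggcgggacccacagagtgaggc
Gmfb (chr14:46822243-46822492, minus strand): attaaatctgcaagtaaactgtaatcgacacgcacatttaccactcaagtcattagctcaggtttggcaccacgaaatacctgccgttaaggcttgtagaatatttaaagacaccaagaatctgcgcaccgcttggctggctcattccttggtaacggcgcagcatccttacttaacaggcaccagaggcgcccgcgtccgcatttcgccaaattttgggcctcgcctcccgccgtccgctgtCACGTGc
Lamp1 (chr8:13158911-13159160, plus strand): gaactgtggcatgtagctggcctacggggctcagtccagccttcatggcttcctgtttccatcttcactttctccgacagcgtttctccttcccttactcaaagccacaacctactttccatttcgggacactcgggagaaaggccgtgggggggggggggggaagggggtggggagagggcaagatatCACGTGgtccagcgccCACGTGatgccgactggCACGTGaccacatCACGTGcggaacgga
Abcf1 (chr17:35969751-35970000, minus strand): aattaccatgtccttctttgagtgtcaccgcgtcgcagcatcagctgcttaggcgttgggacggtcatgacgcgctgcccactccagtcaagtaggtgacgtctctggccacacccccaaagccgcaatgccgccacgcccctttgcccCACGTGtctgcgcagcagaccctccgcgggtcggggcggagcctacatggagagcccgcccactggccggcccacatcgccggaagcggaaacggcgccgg
Arl4a (chr12:40037988-40038237, minus strand): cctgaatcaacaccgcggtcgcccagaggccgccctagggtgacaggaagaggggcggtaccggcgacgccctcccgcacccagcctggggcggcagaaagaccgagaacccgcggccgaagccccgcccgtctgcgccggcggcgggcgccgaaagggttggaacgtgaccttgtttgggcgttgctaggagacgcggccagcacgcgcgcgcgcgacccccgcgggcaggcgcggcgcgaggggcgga
Ccdc85b (chr19:5457564-5457813, minus strand): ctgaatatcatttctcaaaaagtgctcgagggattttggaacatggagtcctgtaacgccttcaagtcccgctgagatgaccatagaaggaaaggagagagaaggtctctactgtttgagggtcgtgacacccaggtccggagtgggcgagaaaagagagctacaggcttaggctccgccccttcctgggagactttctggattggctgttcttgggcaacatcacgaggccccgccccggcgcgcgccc
The stretch of Ciart, a transcriptional repressor of the circadian clock, holds 3 E-boxes. That of Lamp1, a lysosomal membrane protein, holds 4. Those of Gmfb (glia maturation factor beta) and Abcf1 (an ABC-family protein that acts in translation) hold 1 each, and those of the small GTPase Arl4a and of Ccdc85b hold 0. The Arl4a stretch does hold AACGTG, which is the E-box variant CACGTT on the other strand. These matches describe the letters only.

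The values the rule used are given as a description. H2A.Z tags are those inside the interval, scaled by the peak caller to 10000000 tags per library. Members had a median of 15.7 H2A.Z tags, with quartiles of 10.8 and 23.2 and a range of 6.48 to 83.2. Gene-end intervals with at most 1 mark had a median of 14 and distal intervals with both marks one of 10.8. The median width was 649 bp in members, 635 bp in gene-end intervals with at most 1 mark and 500 bp in distal intervals with both marks. A width of 500 bp is the narrowest in the list, and 38.6% of members had it, against 52.2% of distal intervals with both marks. Per kb of interval, members held a median of 21.6 tags. The fold over input was low in all sets, with medians of 5.54 in members, 5.81 at gene ends with at most 1 mark and 5.70 in the distal set, where 4 was the least the caller accepted. The median number of input tags was 5 in members, 4 at gene ends with at most 1 mark and 3 in the distal set.

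**Figure D1:**
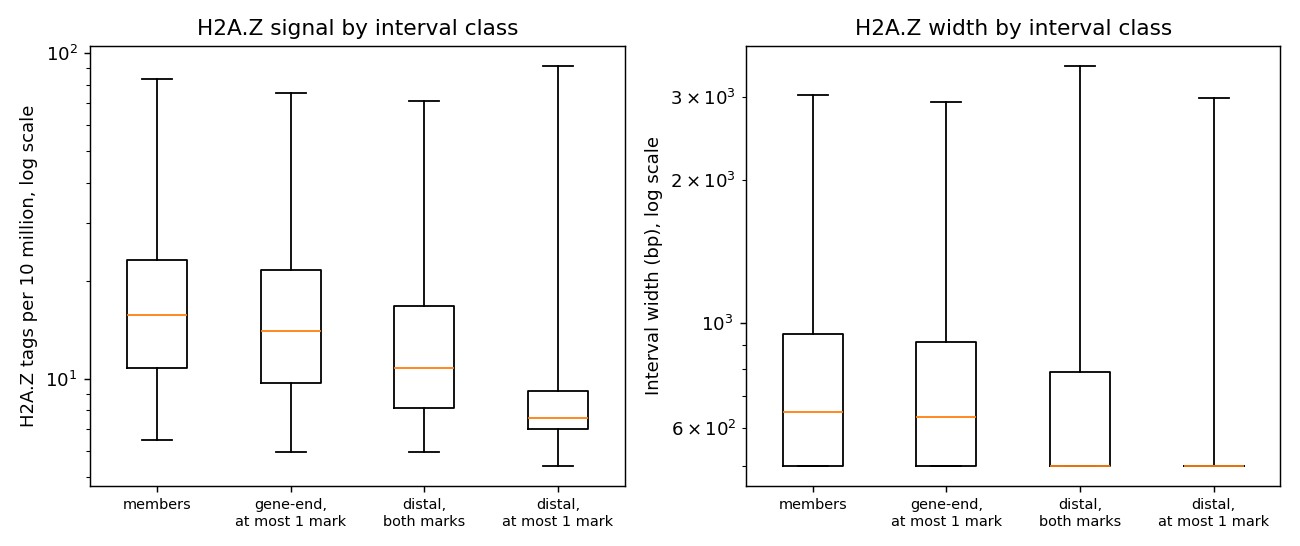
H2A.Z tags per 10000000 library tags (left) and interval width in bp (right), both on log axes, in 4 classes of H2A.Z intervals of 1 library. Boxes span the quartiles, lines are medians and whiskers reach the lowest and highest interval; members have medians of 15.7 tags and 649 bp.

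The 8 members with the most H2A.Z tags lay at genes of several kinds. The first was at ends of Ubtd1, a ubiquitin-domain protein, and Mms19, which helps load iron-sulfur clusters, with 83.2 tags over 2172 bp (chr19:41980628-41982800). Slc35a3, a Golgi nucleotide-sugar transporter, had 73.5 tags (chr3:116711678-116713245), as did the member at ends of Nmnat1, which makes NAD in the nucleus, and of Lzic (chr4:149484616-149486049). They were followed by Tut4, a terminal uridylyltransferase, with 70.2 tags, and by Lpgat1, an acyltransferase, and Lgi1, a secreted glycoprotein, with 69.7 tags each. Foxo1, the forkhead factor restrained by insulin signalling, had 68.6 tags over 3022 bp (chr3:52267253-52270275), the widest member, and Pdp1, a phosphatase that activates pyruvate dehydrogenase, had 68.1. These members also held many input tags, 17 at Foxo1 to 35 at Ubtd1, and their folds over input were 4.04 to 7.1. Across the 2986 members, H2A.Z tags and input tags in the same interval had a Pearson r of 0.910 and a Spearman rho of 0.847, where both values grow with the width they share. The caller also required 4 times the input, which limits the input tags an interval can hold for its H2A.Z tags. The part of input in the order of members was not tested.

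H2A.Z density followed the 2 marks loosely. Across the members, H2A.Z tags per kb had a rho of 0.119 with H3K27ac tags per kb and of 0.356 with H3K4me2 tags per kb of the overlapping interval (n = 2986, pairs from the same gene end). Foxo1 had 68.6 H2A.Z tags over 3022 bp, or 22.7 per kb, close to the members' median of 21.6 per kb. Its overlapping H3K27ac interval had only 19.4 tags, against a median of 128.8 at members. Dbp, a clock output factor, had 14 H2A.Z tags over 500 bp and 1455.7 H3K27ac tags. The H2A.Z totals of these genes differ with width, so the pair is not a contrast in density.

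Members were spread over the acetylated stretch. Of the 2986, 66.7% lay wholly inside an H3K4me2 interval and 44.7% wholly inside an H3K27ac interval. In 54.1% the centre of H2A.Z fell outside the central 50% of the H3K27ac interval, and in 15.6% it fell outside the interval altogether. The members touched 2909 distinct H3K27ac intervals. Among gene-end H3K27ac intervals with H3K4me2, the share that held H2A.Z was 43.8% of those under 1 kb wide, 51.5% of those of 1 to 2 kb, 54.6% of those of 2 to 3 kb, 58.6% of those of 3 to 5 kb and 56.1% of the 66 of 5 kb or more. A wider interval also has more room for an overlap. Some members met the rule narrowly: 96 shared 50 bp or less with a mark.

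The last members inside the distance limit were at Smc6, a chromosome maintenance subunit, 997 bp from the gene end, and Tmem44, 999 bp from it. The nearest both-mark intervals outside were at Mex3c, 1002 bp from the end, and Mepce, 1005 bp from it. H2A.Z tags were 33.5 at Smc6 and 18.9 at Tmem44, against 8.1 at Mex3c and 6.48 at Mepce. Between 900 and 1000 bp there were 117 members, and in the next 100 bp beyond the limit there were 91 both-mark intervals.

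Gene starts rather than gene stops held the members. The strand was listed for 17491 of the 21883 genes, and for 2415 members the nearest gene end could be called a start or a stop. It was a start for 2353 of them (97.4%, Wilson 95% interval 96.7 to 98.0) and a stop for 62, of which 28 also had a listed start within 1 kb. For the other 571 members the strand of the gene was not listed. Gene-end intervals with at most 1 mark lay nearest a start in 93.7% of cases, and by marks in 97.2% with H3K4me2 only (96.3 to 97.9), 96.1% with H3K27ac only (93.5 to 97.7) and 78.1% with neither mark. The members' share thus lay within the intervals of the 2 sets with 1 mark. Counted over ends, 15.1% of all gene starts had a member, against 0.863% of all gene stops. The shares also differed among marked ends: of starts with both marks 43.0% had a member (41.8 to 44.3), and of stops with both marks 16.8% (14.5 to 19.5).

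Around the start, the narrow members formed 2 flanks. Of the 2324 members within 1 kb of a listed start, 59.6% had their centre downstream of it. Among the 901 that were 500 bp wide, only 6.77% (5.31 to 8.60) were centred within 100 bp of the start, while 30.6% lay 200 to 500 bp downstream and 19.6% lay 300 to 600 bp upstream. Of 500 bp wide gene-end intervals with at most 1 mark, 11.9% (10.0 to 14.2) were centred within 100 bp of the start. The interval on this share did not overlap that of the members' share. The same set had both flanks too. Of it, 25.2% (22.6 to 28.1) lay 200 to 500 bp downstream and 22.6% (20.0 to 25.4) lay 300 to 600 bp upstream. The members' flank shares had intervals of 27.7 to 33.7 and 17.2 to 22.4, which overlapped these. The 2 flanks were thus not particular to members, while the share at the start was lower in members. Members of 1000 bp or more were placed differently, since 25.3% of these 522 were centred within 100 bp of the start and 88.3% covered it. Starts of genes on both strands lay within 1 kb of 14.7% of the narrow members downstream of a start and of 6.33% of those upstream.

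**Figure D2:**
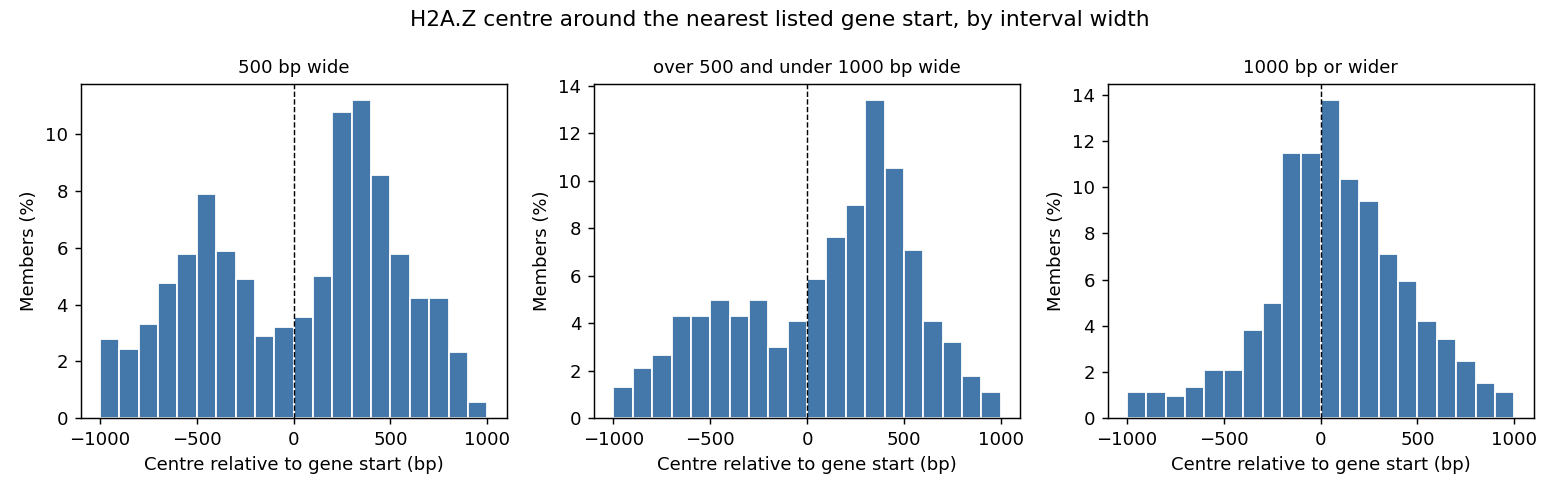
Distance from the nearest listed gene start to the centre of the member in bp (negative is upstream), in bins of 100 bp, as the percentage of members within 1 kb of a start in each of 3 width classes (901, 901 and 522 members). The 500 bp wide members show a dip at the start between 2 flanks, and those of 1000 bp or wider are centred near it.

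A few starts had a member on each side. At 62 genes the listed start had 2 members or more within 1 kb, at a median of 677 bp upstream and 600.5 bp downstream. No 2 intervals of the H2A.Z list had centres closer than 1000 bp, so a pair this near to 1 start had to lie on both sides of it, and the count says nothing of a preference for flanks. Counting either end of a gene, 3382 genes (15.5% of 21883) had a member, 3264 of them 1 and 118 of them 2. The 118 tied, and the first 5 in alphabetical order were 0610010F05Rik, Abce1, Abhd14b, Ado and Afdn. At Ado, which encodes a thiol dioxygenase, the members had 17.3 tags at 350 bp downstream of the start and 12.4 tags at 794 bp upstream (-794).

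The promoters of genes with a member were rich in CpG. The measure was the observed over expected CpG ratio of the 300 bases from 250 before to 50 after the start, and a ratio of at least 0.6 was called high. It was high at 85.0% of the 2527 listed promoters with a member (83.5 to 86.3), at 79.4% of the 2979 with both marks and no H2A.Z (77.9 to 80.8), and at 8.18% of the 7002 with neither mark nor H2A.Z, against 48.4% of all 17491. The intervals of the first 2 sets did not overlap, although the difference was small. The median ratio was 0.827 with a member and 0.813 with both marks and no H2A.Z.

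Promoters with a member and those with both marks and no H2A.Z had similar shares of most motifs searched. Each motif was searched on both strands of the same 300 bases. The GC box GGGCGG was in 70.7% of promoters with a member, in 67.4% with both marks and no H2A.Z, in 15.0% with neither mark nor H2A.Z, and in 46.3% of all. The ETS motif CCGGAAG was in 21.8% with a member, 21.3% with both marks and no H2A.Z, 3.20% with neither mark nor H2A.Z, and 11.9% of all. TATAAA was in 5.54% with a member, 6.28% with both marks and no H2A.Z, and 13.3% of all promoters, and the homeodomain motif TAATTA in 2.37%, 2.05% and 4.68%. The motif AAGATGG, a core of YY1 sites, was in 6.69% with a member (5.78 to 7.73), 8.39% with both marks and no H2A.Z (7.45 to 9.44) and 6.35% of all. The E-box CACGTG was in 11.4% with a member, 10.7% with both marks and no H2A.Z and 7.91% of all, and its variant CACGTT in 5.42%, 5.81% and 4.75%. Where a CLOCK peak also lay in the 300 bases, 42 of 87 promoters with a member had CACGTG (48.3%, 38.1 to 58.6), against 37 of 84 with both marks and no H2A.Z (44.0%, 33.9 to 54.7), intervals that overlap widely. The promoters printed above are of both kinds: Ciart, Gmfb, Lamp1 and Abcf1 hold the E-box, and Arl4a and Ccdc85b, with a CLOCK peak in the same window, do not.

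CLOCK and BMAL1 peaks were more common at members than at gene-end H2A.Z with at most 1 mark. CLOCK overlapped 101 of 2986 members (3.38%, Wilson 95% interval 2.79 to 4.09) and 43 of 3229 gene-end intervals with at most 1 mark (1.33%, 0.990 to 1.79), while 1.01% of all H2A.Z intervals overlapped it. The odds ratio was 2.59 (95% interval 1.81 to 3.72), with an adjusted p of 3.1e-07 in a two-sided Fisher exact test, adjusted over the 9 tests described here by Benjamini-Hochberg. BMAL1 overlapped 102 members (3.42%, 2.82 to 4.13) and 56 of the gene-end intervals with at most 1 mark (1.73%, 1.34 to 2.25), with 1.35% over all H2A.Z intervals. Its odds ratio was 2.00 (1.44 to 2.79; adjusted p 7.6e-05, Fisher exact test). PDX1 overlapped 63 members (2.11%, 1.65 to 2.69) and 36 of the gene-end intervals with at most 1 mark (1.11%, 0.806 to 1.54), and its odds ratio was 1.91 (1.27 to 2.89; adjusted p 0.0033, Fisher exact test). Both PDX1 shares were below the 4.1% over all H2A.Z intervals. The set with at most 1 mark was mixed. Its 419 intervals with H3K27ac only had CLOCK at 2.63% (1.47 to 4.64) and BMAL1 at 3.34% (2.00 to 5.53), intervals that contain the members' shares, whereas the 2248 with H3K4me2 only had CLOCK at 1.33% (0.936 to 1.90) and BMAL1 at 1.65% (1.20 to 2.26). When each list was reduced to the upper 50% of its scores, CLOCK had an odds ratio of 1.67 (adjusted p 0.059, Fisher exact test). That of PDX1 was 0.69 (adjusted p 0.46, Fisher exact test). The set with at most 1 mark then grew from 3229 to 3469, so some of it had both marks in the full lists. With starts only, PDX1 had an adjusted p of 0.080. With all histone intervals at least 8 times the input, 28 members were left and none of the 9 tests described here passed. The set with at most 1 mark then held 1438 intervals, again some with both marks in the full lists.

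Set against distal H2A.Z with both marks, members differed most in PDX1. It overlapped 63 members (2.11%) and 447 of the 3003 distal intervals (14.9%, 13.7 to 16.2), an odds ratio of 0.123 (0.0942 to 0.161; adjusted p 9.1e-77, Fisher exact test). CLOCK overlapped 3.38% of members and 2.33% of the distal set (70 intervals), an odds ratio of 1.47 (1.08 to 2.00; adjusted p 0.018), and BMAL1 3.42% of members and 2.50% of the distal set (75 intervals), an odds ratio of 1.38 (1.02 to 1.87; adjusted p 0.039, Fisher exact tests). Members were wider, and within width classes both calls were lost, at an odds ratio of 1.36 (adjusted p 0.074) for CLOCK and of 1.22 (adjusted p 0.24) for BMAL1. Both were also lost in the upper 50% of scores (1.37, adjusted p 0.37, and 1.46, adjusted p 0.25), and BMAL1 with starts only (1.37, adjusted p 0.068).

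The third comparison took gene ends that had both marks within 1 kb and asked whether those with a member differed from those without H2A.Z. The 827 marked ends with H2A.Z but no member were left out. The sets differed in kind of end, with 2638 starts and 146 stops among ends with a member. Among those without H2A.Z there were 2912 starts and 639 stops. CLOCK had a peak centred within 1 kb of 194 of 3430 marked ends with a member (5.66%, 4.93 to 6.48) and of 173 of 4307 without H2A.Z (4.02%, 3.47 to 4.65), an odds ratio of 1.43 (1.16 to 1.77; adjusted p 0.0015, Fisher exact test). BMAL1 was at 172 ends with a member (5.01%, 4.33 to 5.80) and at 124 without H2A.Z (2.88%, 2.42 to 3.42), an odds ratio of 1.78 (1.41 to 2.25; adjusted p 4.8e-06). PDX1 went the other way, at 133 ends with a member (3.88%, 3.28 to 4.58) and 226 without H2A.Z (5.25%, 4.62 to 5.95), an odds ratio of 0.728 (0.585 to 0.907; adjusted p 0.0060, Fisher exact test). The median H3K27ac was 131.0 tags at ends with a member and 140.0 at ends without H2A.Z. With ends stratified by quintile of H3K27ac tags, the Mantel-Haenszel odds ratios were 1.47 for CLOCK, 1.80 for BMAL1 and 0.731 for PDX1. The direction was the same in each quintile for all 3 factors, but the size was not even. In the highest quintile CLOCK was at 8.28% of ends with a member and 7.5% of those without H2A.Z. There BMAL1 was at 4.94% and 4.35%, and PDX1 at 4.94% and 5.11%. The CLOCK call was lost with starts only (odds ratio 1.28, adjusted p 0.063) and in the upper 50% of the lists (1.17, adjusted p 0.37). With starts only, BMAL1 had an odds ratio of 1.63 and PDX1 one of 0.715, and both kept their calls. CLOCK, BMAL1 and H2A.Z were called against the same input library and PDX1 against the other, per the file headers, and the part of the shared input in these results was not tested.

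**Figure D3:**
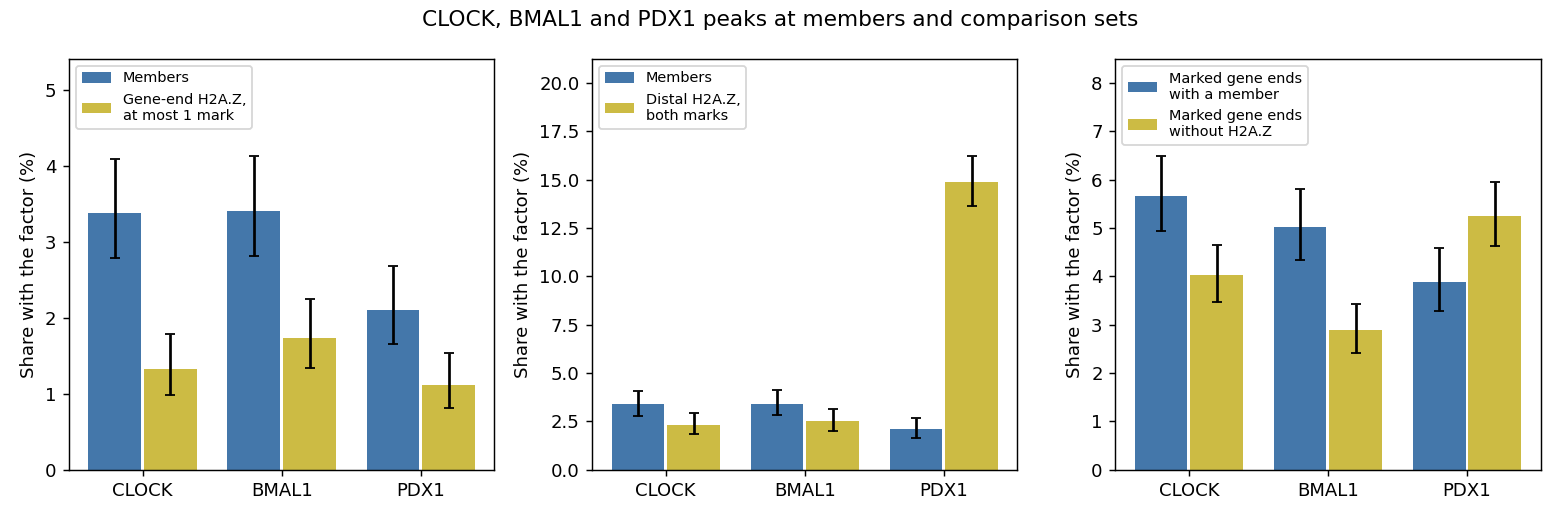
Share of intervals (left and middle) or of gene ends (right) with a CLOCK, BMAL1 or PDX1 peak, in percent, with members or ends with a member in blue and the set they are compared with in yellow. Bars are 1 library per target and error bars are Wilson 95% intervals, which cover counting error only; the PDX1 share of 14.9% at distal intervals stands apart from 2.11% at members.

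Factor peaks at members lay at different distances from the start. For the 73 members with a CLOCK peak near a listed start, the median distance to the start was 155 bp for the CLOCK peak and 280 bp for the H2A.Z centre, and in 55 the CLOCK peak was the nearer. For BMAL1 the medians over 79 members were 201 bp and 246 bp, and in 47 BMAL1 was nearer. For PDX1 they were 477 bp and 371 bp over 29 members, and in 9 PDX1 was nearer. Counted around the centres of all members, CLOCK peaks numbered 19.1 per 1000 members within 250 bp, 16.4 at 250 to 500 bp, 13.4 at 500 to 750 bp and 8.04 at 750 to 1000 bp. PDX1 showed no such decline at members, with 9.71, 10.0, 9.38 and 13.1 per 1000 in the same 4 bins, against 83.6, 86.6, 53.9 and 38.6 per 1000 distal intervals with both marks. At gene-end H2A.Z with at most 1 mark, PDX1 had 4.96, 6.50, 6.19 and 4.65 per 1000 and CLOCK 8.05, 5.26, 6.81 and 1.86. These profiles were thus not particular to members. Beside the 500 bp wide members near a listed start, 34 of the 38 CLOCK peaks centred more than 250 bp away were on the side of the start (89.5%, 75.9 to 95.8), as were 20 of 26 for BMAL1 (76.9%, 57.9 to 89.0) and 12 of 31 for PDX1 (38.7%, 23.7 to 56.2). The same count at gene-end H2A.Z with at most 1 mark gave 9 of 12 for CLOCK (46.8 to 91.1%), 6 of 10 for BMAL1 (31.3 to 83.2%) and 10 of 14 for PDX1 (45.4 to 88.3%). Each of these intervals overlapped that of the members.

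Both CLOCK and BMAL1 overlapped 27 members (0.904%, 0.622 to 1.31). The share was 0.766% (0.511 to 1.15) in the distal set with both marks and 0.279% (0.147 to 0.529) at gene ends with at most 1 mark. Any of the 3 factors overlapped 235 members (7.87%), against 18.0% of the distal set and 3.84% of gene-end intervals with at most 1 mark. The median score of the CLOCK peaks at members was 16, against 15 in the whole list, and that of the BMAL1 peaks was 16, against 14. Of these, 36 of the 101 CLOCK peaks and 41 of the 102 BMAL1 peaks scored 13 or 14, where 13 was the lowest that was called. The member at Ciart (chr3:95881744-95882244) stood far above the rest, with a CLOCK score of 195 and a BMAL1 score of 174, and it touched the CLOCK peak by its last bases (chr3:95882242-95882446). Next in CLOCK score came Ccdc85b, a coiled-coil protein, at 79, then Gmfb at 47, Rnaseh2b, a subunit of the enzyme that removes ribonucleotides from DNA, at 43, and Arl4a at 37. Klf16, a zinc-finger factor, had a score of 36, and Aven, an inhibitor of apoptosis, and Lamp1 had 33 each. Klf16 and Lamp1 had no BMAL1 overlap. The divergent starts of Aimp2, a scaffold of the tRNA synthetase complex, and Pms2, a mismatch repair protein, had 32 for CLOCK and 18 for BMAL1, and Abcf1 had 31 and 24. After Ciart, the highest BMAL1 scores were 165 at Cry1, 48 at Rnaseh2b and 43 at Ccdc85b. High PDX1 scores at members were 50 at Tmem260, 44 at Abcd3, a peroxisomal transporter, 35 at Il23a, and 30 at ends of Pafah1b2 and Sik3. The Abcd3 member was at a gene stop and that of Il23a at an end without a listed strand.

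Core clock genes had members more often than most lists, which were read as counts beside the background. Of the 7893 genes with both marks at an end, 42.7% had a member, and of all genes 15.5%. Of 25 core clock genes 10 had a member, and these were 10 of the 15 with both marks (66.7%). They were the repressors Per2, Cry1, Cry2, Ciart, Bhlhe40 and Bhlhe41, the nuclear receptors Nr1d2 and Rora, the output factor Dbp and the kinase Csnk1d. Their H2A.Z tags were modest, from 7.02 at Bhlhe40 to 25.4 at Nr1d2. Among the genes with both marks and no member were Per1, Nr1d1, Clock and Nfil3, and Arntl, which encodes BMAL1, did not have both marks.

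At the clock genes H2A.Z lay beside the factor peaks more than on them, a layout noticed after the values were seen. Of the 10, 8 had a CLOCK peak within 1 kb of the member's edge, but 1 overlapped it (Ciart) and 7 lay beside it. For BMAL1, 8 were within 1 kb, 2 overlapped (Ciart and Cry1) and 6 lay beside. Over all 2986 members, 101 overlapped a CLOCK peak and 102 a BMAL1 peak. Counted from the centres of all members, 57, 49, 40 and 24 CLOCK peaks lay in successive bins of 250 bp up to 1 kb. Gaps from the edge were measured at listed genes only, and whether the layout differs from that of other members was not tested. At Per2, the member (chr1:91458711-91459211) ended 6 bp from the BMAL1 peak (chr1:91459217-91459547) and 102 bp from the CLOCK peak. At Cry1 it ended 5 bp from the CLOCK peak. The gap to CLOCK was 70 bp at Dbp, 93 bp at Bhlhe41, 205 bp at Cry2, 243 bp at Bhlhe40 and 654 bp at Nr1d2, where the CLOCK score was 433, the highest of these genes. Rora and Csnk1d had no CLOCK or BMAL1 peak within 1 kb of the member.

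**Figure D4:**
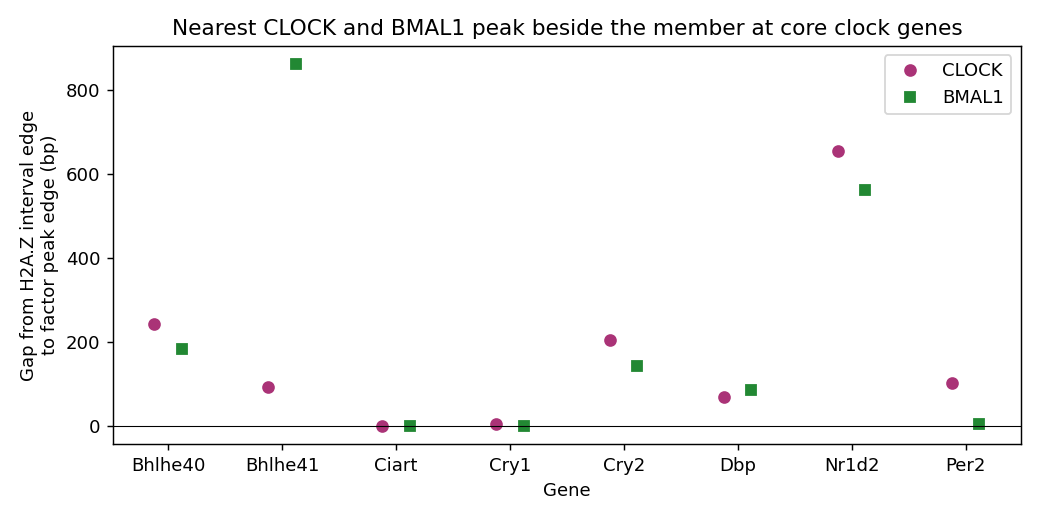
Gap in bp between the edge of the member and the edge of the nearest CLOCK (circles) and BMAL1 (squares) peak at the 8 core clock genes with a peak within 1 kb, where 0 is an overlap. Ciart overlaps both factors and Cry1 overlaps BMAL1, and the other gaps run from 5 bp to 862 bp.

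Most genes of the beta-cell lists carried both marks, and of the marked ones a smaller share had a member than of all marked genes, a difference that was not tested. Over whole lists the share was larger, with 29.2% of the granule genes and 25% of the transcription factors below, against 15.5% of all genes. All 10 beta-cell markers checked had both marks at an end, while markers of other types had them at 1 of 5 alpha-cell genes (Gcg), 1 of 3 hepatocyte genes (Ttr) and none of the delta-cell, acinar, fibroblast, immune and endothelial genes. Of 24 insulin granule and glucose-sensing genes 23 were marked and 7 had a member (30.4% of those marked). Pcsk1, the prohormone convertase, had 30.2 H2A.Z tags, Ins2, an insulin gene, had 18.4, Pam, which amidates peptides, had 9.18, and Chga, a granule protein, had 8.1. Vgf and Ptprn had 7.56 each and Glp1r, the GLP-1 receptor, 7.02. Abcc8, Ins1, Slc2a2 and Iapp were marked without a member. Ins2 was also the only granule gene of the list whose member overlapped PDX1.

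Among 20 beta-cell transcription factors 16 were marked and 5 had a member (31.2% of those marked). Foxo1 had 68.6 tags, Rfx6, a factor of endocrine development, 29.7, Glis3, a zinc-finger factor, 18.4 and Foxa2, a forkhead factor, 9.72. At Pdx1 the member was at the gene stop (chr5:147275355-147275855), had 8.64 tags and lay in an H3K27ac interval of 5857.0 tags. Hnf4a, Mafa, Neurod1 and Nkx6-1 were marked without a member. For granule exocytosis 6 of 17 marked genes had a member, among them the active-zone scaffold Rims2 with 56.2 tags, the calcium-sensor relative Syt4 with 22.7, Vamp3, a vesicle SNARE, with 18.9, and the priming factor Unc13a with 12.4, which also overlapped CLOCK.

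Chromatin and housekeeping genes ranged around the background. Members were at 6 of 11 marked H3K4 methylation genes (54.5%), with 33.5 tags at the scaffold subunit Wdr5, 27.5 at the demethylase Kdm5a and 23.8 at Rbbp5. Of marked acetylation genes 6 of 13 (46.2%) had one, with 37.3 tags at the acetyltransferase Kat6a, 18.9 at Ep300, which encodes p300, and 17.3 at the deacetylase Hdac2. For the H2A.Z machinery it was 6 of 15 (40.0%): Znhit1, a SRCAP subunit, and Actr5, of the INO80 complex, had 22.1 tags each, the p400 gene Ep400 had 21.1, the H2A.Z gene H2az1 had 11.9 and the H2A.Z chaperone Anp32e had 10.8. H2az2 and Srcap were marked without a member. Cell-cycle genes had 6 of 13 (46.2%), with 23.2 tags at Rb1, 12.4 at E2f1 and 10.3 at Cdk4, and proteasome genes 6 of 14 (42.9%), with 20.5 at Psmb1. Of oxidative phosphorylation genes 4 of 12 had a member (33.3%), the highest at Uqcrc2 of complex III with 36.2 tags and Ndufb8 of complex I with 21.6. Ribosomal protein genes had 5 of 19 (26.3%), with 14 tags at Rpl8, 9.72 at Rpl3 and 8.64 at Rpl4.

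The lowest shares among lists with marked genes were those of the endoplasmic reticulum and of genes kept silent in beta cells. Of 15 marked genes for protein folding and stress in the endoplasmic reticulum 2 had a member (13.3%), the chaperone Calr with 10.8 tags and the ubiquitin ligase Syvn1 with 7.56, while Hspa5, Xbp1, Atf4 and Ddit3 were marked without one. None of the 3 marked genes among 16 silenced in beta cells had a member, and none of 20 developmental genes, such as Pax3, Myod1 and Hoxa9, carried both marks. With lists of this size each share rests on few genes, and no list was tested.

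**Figure D5:**
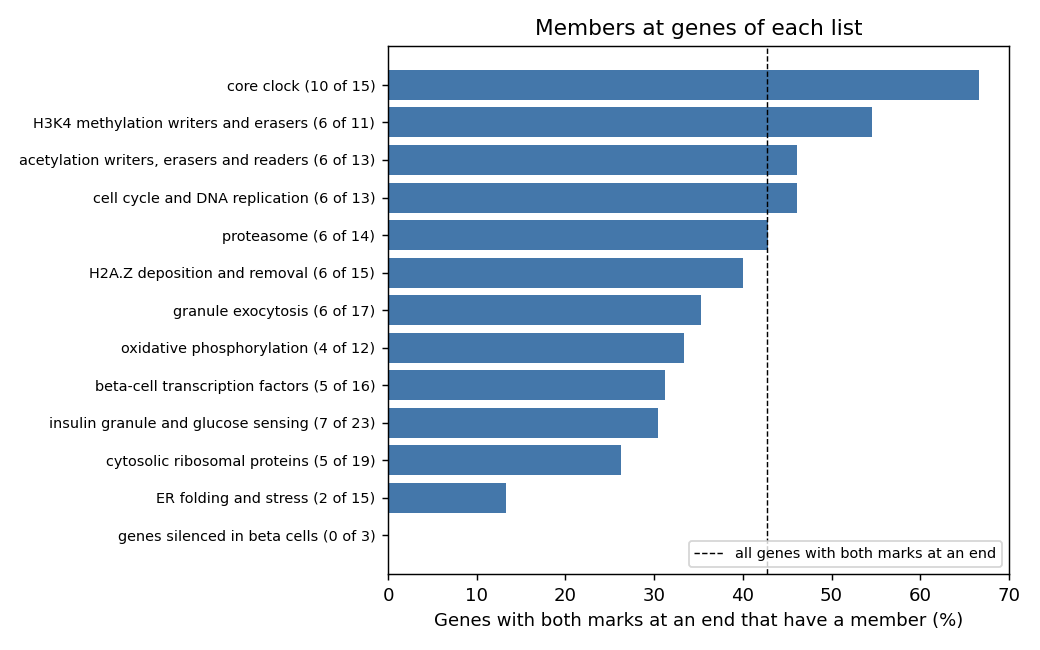
Percentage of genes with both marks at an end that have a member, for each list with a marked gene, with the counts in brackets. The dashed line is the 42.7% of all genes with both marks; the core clock list is at 66.7% and the list for endoplasmic reticulum folding and stress at 13.3%.

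The H2A.Z library was unevenly spread over chromosomes, which the share of marked ends with a member followed less. The tags of members did differ, with medians from 11.05 on chromosome X and 11.3 on chromosome 9 to 20.0 on chromosomes 12 and 14. The H2A.Z tags given for named genes were not adjusted for chromosome. Members made up 5.36% of the H2A.Z intervals of chromosome 14 and 28.2% of those of chromosome 9. Of marked gene ends, 35.9% had a member on chromosome 9 and 46.3% on chromosome 3. Within chromosomes the Mantel-Haenszel odds ratios against gene-end H2A.Z with at most 1 mark were 2.68 for CLOCK, 2.09 for BMAL1 and 1.95 for PDX1, close to the pooled values. The lists rested on 18513695 tags for H2A.Z, of which 3.12% were in intervals, 13430083 for H3K27ac, 26678241 for H3K4me2, 17898856 for CLOCK, 12892080 for BMAL1 and 19568242 for PDX1. A site below the caller's threshold is absent from a list, so a missing interval does not show that H2A.Z, a mark or a factor was absent. Of the members, 8.10% had the lowest score that was called (14), against 13.7% of gene-end intervals with at most 1 mark and 17.2% of distal intervals with both marks.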

How the data were processed

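The submitters' processing notes name Bowtie 1.1.1, HOMER (without a version) and mm10. Each library was called on its own with findPeaks, in the factor style for CLOCK, BMAL1 and PDX1 and in the histone style for the others, and per the file headers a peak had 4 times the input and passed a Poisson p-value of 1e-04. H2A.Z, CLOCK and BMAL1 shared 1 pooled input and the other targets the second, per the file headers; the description of the H2A.Z sample names the second, and the header was followed. Normalized tag counts are, per the file headers, a signal for which HOMER set every library to 10000000 tags. The deposited score ranked peaks within a list, the deposited fold over input is a ratio made by HOMER, and the deposited tag counts, p-value and focus-ratio fraction columns entered no test.

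Gene ends came from the RefSeq table for GRCm38.p6, which has the coordinates of mm10, and strands and starts from the RefSeq promoter table. Exons and introns were not assigned. A factor overlapped an H2A.Z interval when they shared 1 bp. The 9 comparisons used Fisher's exact test (two-sided), with Woolf 95% intervals and Benjamini-Hochberg adjustment, and intervals on shares are Wilson 95% intervals, which cover counting error only. Members and lists were chosen with earlier results of these data known. Named members are the 8 with the highest H2A.Z tags, the 8, 5 and 5 with the highest CLOCK, BMAL1 and PDX1 scores, the 8 on CLOCK and BMAL1 with the highest CLOCK scores, the first 5 genes with the most members, those nearest the 1 kb limit, and in each list the genes with the highest H2A.Z tags and some without a member; further genes of the lists were named after their values were seen. Some genes that this rule names are not reported here. Overlap and nearest-distance code was tested on simulated data. The tools were SciPy 1.17.1, statsmodels 0.14.6 (Mantel-Haenszel), pandas 2.3.3 and NumPy 2.4.6 under Python 3.11.15, with figures by matplotlib 3.10.9.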

Additional observations from a re-analysis of the deposited data

How the results depend on the processing

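Of 84 alternative values of the 9 tests, 63 kept their direction and side of the 0.05 threshold, 17 kept the direction and lost the call and 4 turned. Odds ratios are given as against gene-end H2A.Z with at most 1 mark, then against the distal set, then at marked ends. When lists were reduced to the upper 50% of scores, CLOCK was 1.67, 1.37 and 1.17, BMAL1 against the distal set 1.46, and PDX1 against gene-end H2A.Z turned to 0.688. The gene-end set with at most 1 mark then included intervals with both marks in the full lists, so that contrast was not the main one. With histone intervals at least 8 times the input only 28 members were left, at 0.146% of genes, 100% of them at starts and 76.9% of promoters with a high CpG ratio, so the tests say little: CLOCK 3.29, 5.29 and 1.74, BMAL1 0.736, 1.70 and 0.502, PDX1 2.92, 0.217 and 1.76. BMAL1 was at 0 of the 28 members, 0 of 48 distal intervals and 0 of 32 marked ends with a member. CLOCK was at 1 of the 28 and 0 of the 48. Where a count was 0, the ratio rests on a small constant added to each cell. The BMAL1 value of 1.70 thus has no direction, although it is counted among the 17. With gene starts only, calls were lost for PDX1 against gene-end H2A.Z (1.60), BMAL1 against the distal set (1.37) and CLOCK at marked ends (1.28). BMAL1 against the distal set was also lost at 1.40 with 50% of the interval covered by each mark, at 1.27 with centres within 500 bp and at 1.22 within width classes, where CLOCK was 1.36. The causes were not tested. Mantel-Haenszel fits within chromosomes, and 1 end per run of ends less than 2 kb apart, were chosen after seeing the data and changed no call.

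The number of members was 1917 at a gene-end distance of 500 bp and 1491 in the upper 50% of the lists. The share of genes with a member was 9.81% at 500 bp, 18.0% at 2 kb, 7.85% in the upper 50% and 11.2% with 50% coverage. The share at starts was 96.3% at 2 kb, and that of high-CpG promoters 83.4% at 500 bp. With 1 library per target no replicate could be left out. No paired analysis was possible because each target had 1 library.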
